A study of Schima superba and Cryptocarya concinna with 24 samples.

Results

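Proline-rich proteins and extensins are structural proteins of the plant cell wall, and 5 unigenes (assembled transcripts) of this kind are described here in leaves of the trees Schima superba and Cryptocarya concinna. In S. superba they are CL4111.Contig1, whose best database hit is a proline-rich protein 4-like protein of Pyrus x bretschneideri, and Unigene5735, whose best hit is an extensin-2 of Nicotiana tomentosiformis. In C. concinna they are Unigene6825 (best hit proline-rich protein 4-like, Citrus sinensis), CL2130.Contig2 (repetitive proline-rich cell wall protein, Medicago sativa) and Unigene16568 (extensin-2, N. tomentosiformis). These 5 of 117867 unigenes were chosen from measured values of the same libraries. CL4111.Contig1 was known to stand out for its age difference in full light, Unigene5735 for its light difference in mature leaves, and CL2130.Contig2 for its levels in mature leaves. Which values chose Unigene6825 and Unigene16568 is not recorded, so their levels are a description with no test. All 5 passed the filter on low values, an FPKM of 1 or more in 3 or more of 12 libraries.

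RNA was sequenced from young and mature leaves of seedlings of the evergreen forest on Dinghu mountain, in the subtropics, grown in full sunlight (100%) or under 2 layers of black nylon net that left 30% of it, called low light here. Each species has 4 groups, young full light, young low light, mature full light and mature low light, of 3 libraries each, 24 libraries in all. Whether the replicates are separate plants is not in the labels; the p-values therefore cover the spread between libraries, which may be technical. The comparisons ask how transcript levels differ with light at each leaf age, with leaf age in each light, and whether the light difference depends on age.

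Proline-rich proteins and extensins belong to the hydroxyproline-rich glycoproteins. Prolyl 4-hydroxylases turn their prolines into hydroxyproline, sugars are attached to these residues, and the proteins are secreted into the wall, where class III peroxidases can cross-link extensins through tyrosines. They are known for making the wall of growing or wounded organs more rigid, and repetitive proline-rich proteins were described in legume stems, seed coats and nodules. The best hits had e-values of 3.48e-27 for CL4111.Contig1, 1.1e-34 for Unigene5735, 7.88e-97 for Unigene6825, 5.03e-07 for CL2130.Contig2 and 8.53e-17 for Unigene16568. Repeats rich in proline align easily, and the hit of CL2130.Contig2 is the weakest of these, so the names are those of the hits and no more.

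Levels are FPKM, fragments scaled to unigene length and to each library's mapped total, and so are per length. Summed FPKM was 769593 to 977277 per library; relative depth within a species was 0.953 to 1.03 in S. superba and 0.911 to 1.04 in C. concinna, while absolute depth is unknown. S. superba young low light replicates 2 and 3 were more alike (SD of log2 ratios 0.368) than any other replicate pair of that species (0.765 to 1.37). Mesophyll markers were high in every library but moved with age and light: they summed to 13320 to 20130 FPKM in S. superba young full light, 35660 to 50520 in young low light, 47230 to 70720 in mature full light and 64780 to 81360 in mature low light. In C. concinna the sums were 17230 to 24380, 27540 to 41610, 38180 to 44850 and 40060 to 67860 in the same order. In C. concinna mature low light replicate 2, 10 xylem and secondary wall markers summed to 461 FPKM, against 34.3 to 49.5 in the other 5 mature libraries and 143 to 338 in young ones.

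In 4 of the 5 unigenes, transcript levels in young leaves were far above those in mature leaves in both lights, and in CL2130.Contig2 the order was the reverse. Group ranges of young and mature leaves did not overlap in any of the 5, which were chosen from measured values of these libraries. How often ranges separate over all unigenes was not counted. In leaf RNA, fewer cells of a type and less RNA per cell cannot be told apart.

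**Figure D1:**
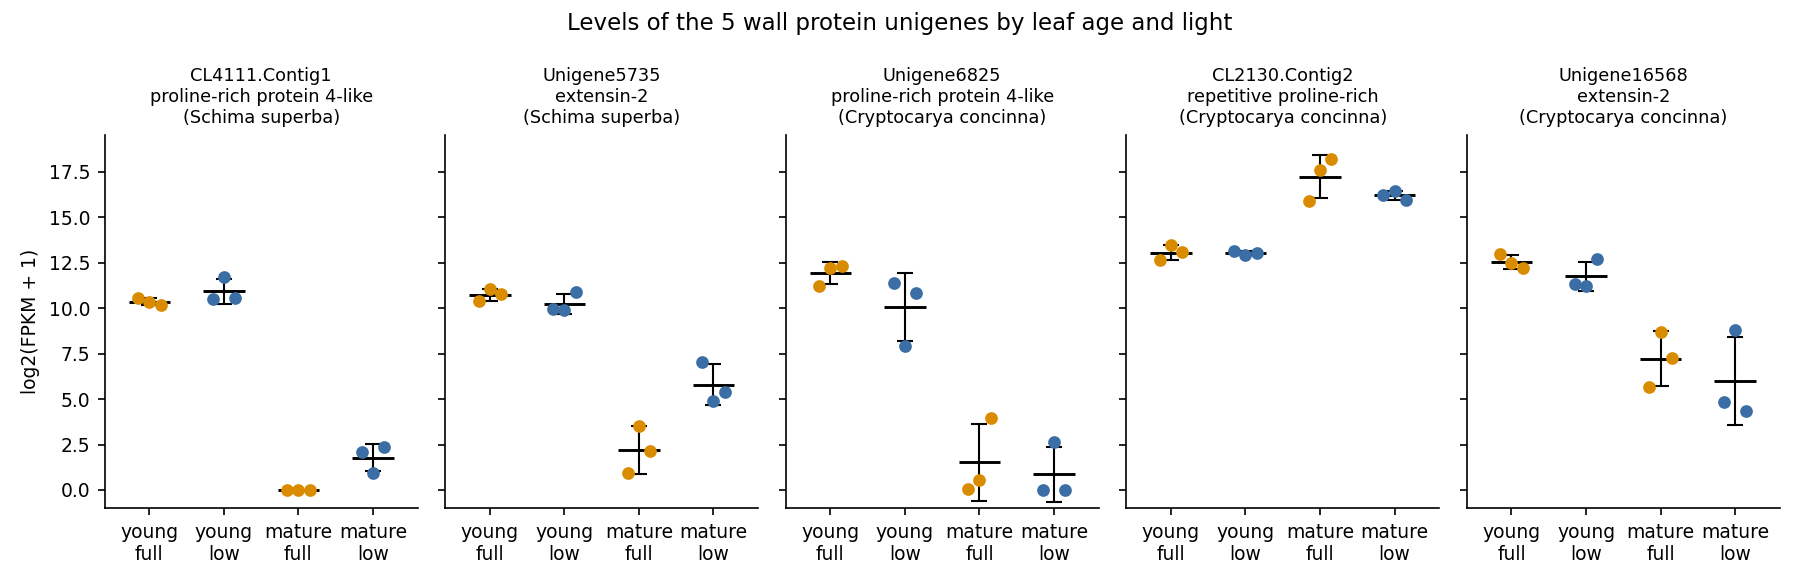
FPKM of the 5 unigenes in each library (points, log2(FPKM + 1) scale on the y axis) by group (x axis), with the mean of each group of 3 as a bar. CL4111.Contig1, Unigene5735, Unigene6825 and Unigene16568 are high in young leaves of both lights, and CL2130.Contig2 is high in every library and higher in mature leaves.

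The proline-rich protein 4-like unigene of S. superba, CL4111.Contig1, had 1534, 1288 and 1153 FPKM in young full light leaves and 1457, 3377 and 1501 in young low light leaves. It was listed at 0 in all 3 mature full light libraries and had 3.18, 0.9 and 4.07 FPKM in mature low light. It thus ranked 8 to 30 among all unigenes of the young libraries and was near 0 in every mature one. The age difference in low light compares no library of the full light comparison that singled it out, though its SE rests on 1 spread fitted to all 12 libraries. There CL4111.Contig1 was 9.15 higher in young leaves on the log2(FPKM + 1) scale (SE 0.378, limma adjusted p 5.99e-08, in 3 of 3 libraries against 3). Over the alternatives tried its adjusted p was 5.77e-08 to 9.45e-05. Called here means an adjusted p under 0.05, and the fit called 29.5% of all unigenes tested higher in young low light leaves and 9.19% lower. Its assembly cluster holds one other contig, CL4111.Contig2 (best hit Proline-rich protein 2 of Theobroma cacao), at 1030 to 1474 FPKM in young full light, 1044 to 2574 in young low light, 0 to 0.49 in mature full light and 1.09 to 3.93 in mature low light. Contigs of a cluster can share reads, so their split is uncertain; CL4111.Contig1 held 46.6% to 59.8% of the summed FPKM of the cluster in young leaves.

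Unigene6825, the proline-rich protein 4-like unigene of C. concinna, had 2421, 4813 and 5024 FPKM in young full light leaves. In young low light leaves it had 2688, 241 and 1841 FPKM, and replicate 2 there stood lowest of the young libraries. Mature full light libraries had 0.04, 0.46 and 14.4 FPKM, and mature low light libraries 0, 5.16 and 0. The low light value of 5.16 is mature low light replicate 2, the library with high xylem markers. The highest mature value, 14.4, is mature full light replicate 3, with a xylem marker sum of 42.7. The part of these markers was not tested. Young minus mature, the difference was 10.41 (SE 1.08) in full light and 9.18 in low light on the log2(FPKM + 1) scale. It was 10.05 in low light without mature low light replicate 2. These are given without a test.

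Both extensins also had higher levels in young leaves. The S. superba extensin-2 unigene, Unigene5735, had 1330, 2092 and 1774 FPKM in young full light leaves and 995, 953 and 1892 in young low light leaves, and ranked 8 to 62 in these libraries. In mature leaves it had 0.89, 10.6 and 3.39 FPKM in full light, and in low light 133, 28.5 and 41.7 FPKM. All 3 low light libraries were above all 3 full light libraries of mature leaves, which is the contrast this unigene was chosen for. Young minus mature, the difference was 8.54 (SE 0.652) in full light and 4.46 in low light on the log2 scale.

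The C. concinna extensin-2 unigene, Unigene16568, had 7971, 5800 and 4692 FPKM in young full light leaves and 2606, 2372 and 6562 in young low light leaves, where it ranked 1 to 15. Mature leaves kept lower levels that varied between libraries: 49.7, 413 and 154 FPKM in full light, and in low light 28.2, 439.6 and 19 FPKM. The highest mature value is again mature low light replicate 2, the library with high xylem markers, and the next highest is mature full light replicate 2, with a xylem marker sum of 43.1. The part of these markers was not tested. Young minus mature, the difference was 5.34 (SE 0.999) in full light and 5.76 in low light, and 7.16 in low light without mature low light replicate 2.

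CL2130.Contig2 ran the other way and took a large part of the measured transcripts. It had 6399, 11194 and 8567 FPKM in young full light leaves and 9227, 7770 and 8415 in young low light leaves. In mature leaves it had 61381, 201066 and 301105 FPKM in full light, and in low light 76594, 88178 and 63181 FPKM. It was the highest unigene of all 6 mature libraries and of 4 of the 6 young ones. Its share of all FPKM was 7.29%, 22.5% and 30.8% in the mature full light libraries, 8.95%, 10.5% and 7.43% in mature low light, and 0.812% to 1.35% in young leaves. The mature mean was 21.5 times the young mean in full light and 8.97 times in low light. As differences on the log2 scale, young minus mature, these were -4.19 (SE 0.559) and -3.16, and the first was -4.86 without mature full light replicate 1.

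A unigene that holds up to 30.8% of a library's summed FPKM can lower the FPKM of the others there. By how much depends on its share of the reads, which is not known. With FPKM rescaled without the 5 unigenes, the difference of CL2130.Contig2 was -4.34 in full light and -3.29 in low light. Its cluster holds CL2130.Contig3 (repetitive proline-rich cell wall protein, Medicago sativa) and CL2130.Contig1 (Proline-rich 33 kDa extensin-related protein, Daucus carota), and CL2130.Contig2 held 91.6% to 95.5% of the summed FPKM of the cluster. CL2130.Contig3 had 357 to 715 FPKM in young and 4473 to 16418 in mature leaves, and CL2130.Contig1 had 5.91 to 20.2 in young and 103 to 993 in mature leaves. The summed cluster differed by -4.17 in full light and -3.17 in low light. Markers of phloem shared its order of ages: 12 of them summed to 87.6 to 170 FPKM in young and 211 to 344 in mature leaves. In mature full light their sums were 262.5, 281.6 and 210.7 in replicates 1 to 3, which was not the order of CL2130.Contig2. In mature low light they were 274.7, 344.1 and 217.2, which was its order. Mesophyll markers were also higher in mature full light than in young full light leaves, with overlap in low light. The part of either was not tested.

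**Figure D2:**
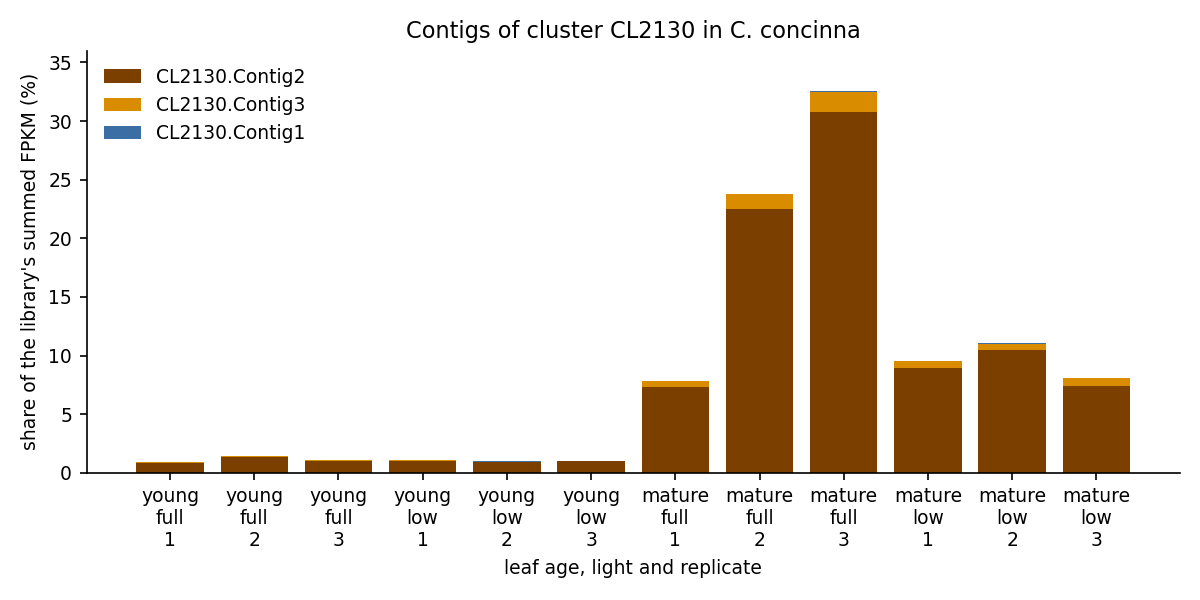
Share of all FPKM of a library, in percent, held by the contigs of cluster CL2130 in each C. concinna library (stacked bars, from 0), by group. The CL2130.Contig2 part is 7.29%, 22.5% and 30.8% in the 3 mature full light libraries, and no more than 1.35% in any young library.

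The fitted light differences within one age were smaller in size than the age differences in each of the 5 unigenes. In young leaves the full and low light libraries overlapped in all 5 unigenes. Unigene5735 was 0.49 higher in full light on the log2 scale (SE 0.652, 95% interval -0.945 to 1.92, limma adjusted p 0.717), in a comparison sharing no library with the one that chose it. CL2130.Contig2 differed by 0.0081 (SE 0.559, interval -1.2 to 1.22, adjusted p 1), a value whose sign turned with the processing (-0.484 with median-ratio rescaling, -0.191 without young full light replicate 2), so changes of up to about 1.2 on the log2 scale in either direction lie inside the interval. Adjusted p was 0.545 to 0.889 and 0.852 to 1 over the alternatives. Both SEs rest on 1 spread fitted to all 12 libraries of the species, so they are not the spread of the young libraries alone. For CL2130.Contig2 the SD on the log2 scale was 0.404 and 0.124 in young full and low light, and 1.19 in mature full light. For Unigene5735 it was 0.33 and 0.554 in young full and low light, and 1.31 and 1.14 in mature full and low light. The other differences in young leaves were -0.57 for CL4111.Contig1, 1.87 for Unigene6825 and 0.81 for Unigene16568, and they are given without a test. Of all unigenes tested, limma called 3.02% higher and 2.32% lower in full light in young S. superba leaves, and 0.0245% and 0.00566% in young C. concinna leaves.

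In mature leaves both S. superba unigenes had higher levels in low light, with no overlap between the lights, a separation not counted over all unigenes. Unigene5735 differed by -3.59 on the log2 scale (full minus low), and CL4111.Contig1 was listed at 0 in full light. The 3 C. concinna unigenes overlapped between the lights, at 0.64 for Unigene6825, 1.04 for CL2130.Contig2 and 1.22 for Unigene16568. These C. concinna values moved when 1 library was left out. Unigene6825 was at -0.57 without mature full light replicate 3, CL2130.Contig2 at 1.71 without mature full light replicate 1, and Unigene16568 at 2.62 without mature low light replicate 2. The fit called 0.255% of unigenes higher and 0.6% lower in full light in mature S. superba leaves, and 0.0302% and 0.0264% in C. concinna. The light difference of Unigene5735 in young minus that in mature leaves was 4.08 (SE 0.922), which rests on the contrast that chose it, while Unigene6825 was at 1.23 (SE 1.52), CL2130.Contig2 at -1.03 (SE 0.79) and Unigene16568 at -0.41 (SE 1.41). Without mature full light replicate 1 CL2130.Contig2 was at -1.7, and Unigene16568 ranged from -1.81 without mature low light replicate 2 to 0.42 without mature low light replicate 3. For CL4111.Contig1, listed at 0 in mature full light, the fitted size depends on the pseudocount (1.21 with 1 and 4.01 with 0.1). For this difference the fit called 1.11% of S. superba unigenes higher and 0.506% lower, and 0.00377% and 0.00189% in C. concinna.

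The unigenes with the most similar pattern were taken among those with a usable description and a highest group mean of at least 10 FPKM, by Pearson r of log2(FPKM + 1) over the 12 libraries of the species, which largely reflects the age difference. For CL4111.Contig1 they were CL4111.Contig2 (0.997), the GDSL esterase/lipase CL3358.Contig1 (0.995) and the MIXTA-like CL5531.Contig2 (0.994). For Unigene5735 they were the extensin Unigene44 (0.995), the IQ-DOMAIN 1-like Unigene2455 (0.992) and the nucleobase-ascorbate transporter CL5598.Contig1 (0.99). Nearest to Unigene6825 were the glycerol-3-phosphate acyltransferase CL5732.Contig2 (0.992), the cytochrome P450 77A3-like Unigene4042 (0.985) and the AP2 unigene Unigene27887 (0.984). In Arabidopsis, MIXTA-like MYB factors act in epidermal cells and glycerol-3-phosphate acyltransferase 6 makes cutin precursors.

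CL2130.Contig2 was nearest to both contigs of its own cluster (0.99 and 0.986) and then to Unigene2617, a TRANSPARENT TESTA 12-like transporter (0.976). Unigene2617 had 248, 759 and 635 FPKM in mature full light, 139 to 199.8 in mature low light, and 0 in every young library except one at 0.39. Unigene16568 was nearest to the 1,3-beta glucanase Unigene14283 (0.983), the leucoanthocyanidin reductase-like Unigene38689 (0.978) and the hydroxyproline-rich glycoprotein CL1144.Contig3 (0.977). Among the 5, r was 0.943 between CL4111.Contig1 and Unigene5735, 0.929 between Unigene6825 and Unigene16568, and -0.849 and -0.775 between CL2130.Contig2 and these last 2. The points share libraries, and no test is given.

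The other unigenes whose best hits name a proline-rich wall protein, an extensin or a leucine-rich repeat extensin numbered 70 tested in S. superba (of 86) and 84 in C. concinna (of 98). In S. superba 38 of 70 (54.3%) were called higher and 2 (2.86%) lower in young full light leaves, where 36.3% of all unigenes tested were called higher and 9.67% lower. In low light 32 (45.7%) were higher and 2 lower, beside 29.5% and 9.19%. In C. concinna 36 of 84 (42.9%) were higher and 3 lower in full light, beside 20.2% and 8.19% of all unigenes. In low light 30 (35.7%) were higher and 7 (8.33%) lower, beside 17.1% and 20.7%. Median differences of these lists were 1.9 in full and 1.35 in low light in S. superba, against 0.546 and 0.393 over all unigenes. They were 1.36 and 0.863 in C. concinna, against 0.166 and -0.271. Rescaling by median ratios moved the medians over all unigenes to 0.0749 and 0.0522 in S. superba and to -0.0856 and -0.138 in C. concinna, with list medians of 1.41, 1.05, 1.1 and 0.973. With no filter on low values (86 and 98 unigenes) the list medians were 1.32 and 0.571 in S. superba, against 0.471 and 0.33, and 0.787 and 0.566 in C. concinna, against 0.105 and -0.232. The low light median of C. concinna was 0.506 without mature low light replicate 3, 0.588 without young low light replicate 1 and 1.33 without young low light replicate 2.

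**Figure D3:**
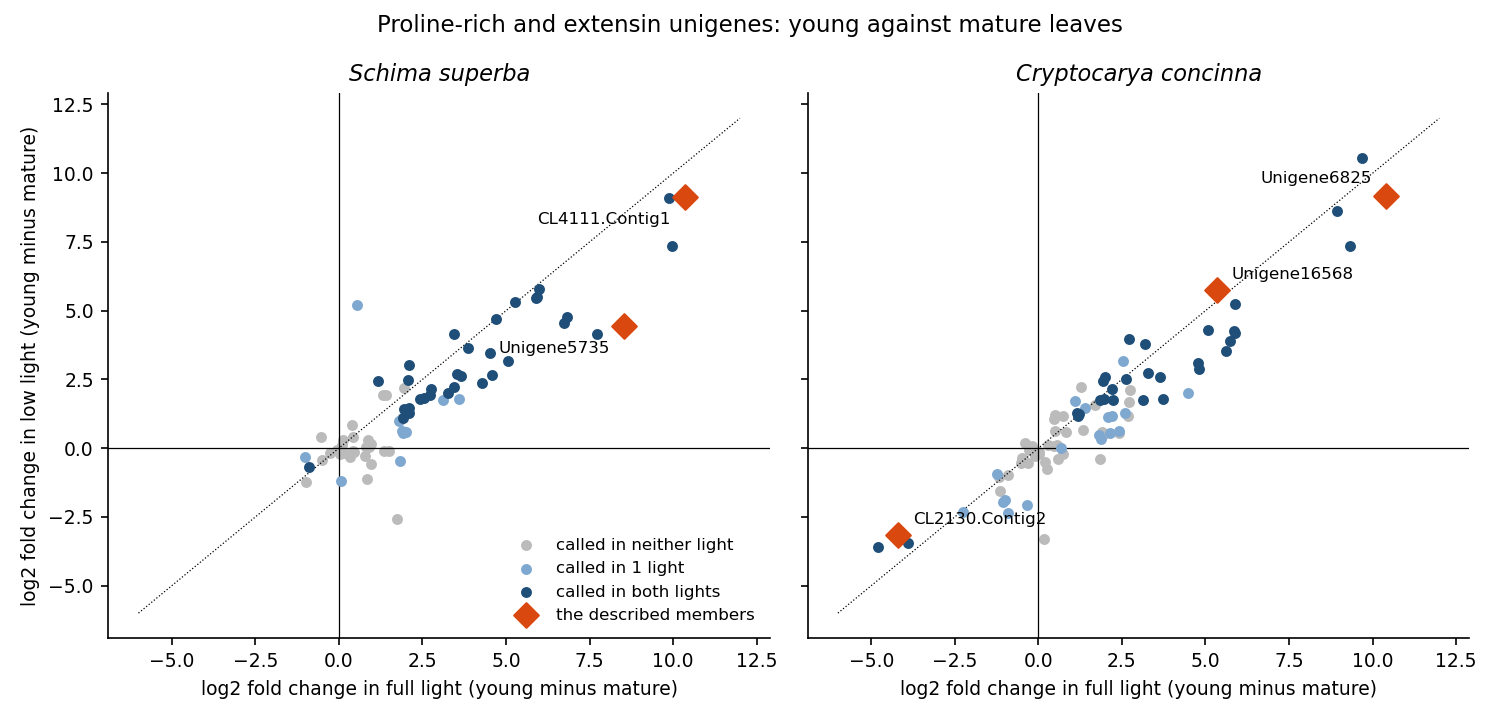
Log2 difference between young and mature leaves in full light (x axis) and in low light (y axis), on the log2(FPKM + 1) scale, for the other proline-rich and extensin unigenes tested (points, shaded by whether they were called in neither, 1 or both lights) and the 5 named unigenes (labelled diamonds), 1 panel per species, with a dotted line of equal differences. CL2130.Contig2 lies at -4.19 and -3.16, and the other 4 lie above 4 in both lights; fitted values of unigenes listed at 0 in a group depend on the pseudocount.

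The full and low light calls compare different libraries, but both use 1 spread fitted to all 12 libraries of the species. How many of all unigenes were called in both lights was not counted. Of the S. superba unigenes called higher in young leaves, 31 were called in both lights, 81.6% of the 38 and 96.9% of the 32. In C. concinna 27 were, 75% of the 36 and 90% of the 30. Called lower in both lights were the extensin-like Unigene31116 in S. superba and, in C. concinna, CL2130.Contig3 and CL2130.Contig1, which can share reads with CL2130.Contig2. The low light call of Unigene31116 (-0.69, adjusted p 0.0335) was lost in 7 of 21 alternatives, among them without young low light replicate 2 (0.133) or 3 (0.112), without mature low light replicate 1 (0.0792) or 2 (0.087), and with only the groups compared (0.0661). The third C. concinna unigene called lower in full light was CL3798.Contig1, a basic proline-rich protein named after its values were seen.

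Among these proline-rich unigenes, Unigene19973 of C. concinna (repetitive proline-rich cell wall protein 1) had 668, 931 and 913 FPKM in young full light and 1436, 1454 and 1660 in young low light, and was listed at 0 in all 6 mature libraries (limma adjusted p 5.56e-11 and 1.91e-11). It carries the same kind of name as CL2130.Contig2 and had the opposite order of ages. The extensin-family unigene CL4138.Contig1 of S. superba (Pollen Ole e 1 allergen and extensin family) had 1955 ± 416 and 698 ± 69.6 FPKM (SD, n = 3) in young full and low light leaves and 1.05 ± 0.93 and 4.11 ± 3.85 in mature ones. It was 9.98 higher in young leaves in full light (adjusted p 7.14e-08) and 7.35 in low light (adjusted p 7.61e-07). Unigene9646 of C. concinna, an extensin-like protein, rose by 9.32 in full light (adjusted p 3.32e-05) and 7.34 in low light (adjusted p 1.46e-04). Its mature low light replicate 2, the library with high xylem markers, had 32.3 FPKM against 3.61 and 0.53 in the others.

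Of the lower calls, both contigs of the CL2130 cluster were the largest in C. concinna. CL2130.Contig1 was at -4.81 and CL2130.Contig3 at -3.89 in full light, young minus mature. Unigene35744 of S. superba, extensin-like, had 666 ± 249 FPKM in young and 1288 ± 108 in mature full light leaves (SD, n = 3), a difference of -1.03 (adjusted p 0.0195). That call ended without young full light replicate 3 (adjusted p 0.0662) or mature full light replicate 1 (0.0504), or with only the groups compared (0.082). The hydroxyproline-rich glycoprotein CL3263.Contig2 of S. superba was lower in young leaves in low light, by -1.18 (adjusted p 0.00264). It had 69 ± 6.15 FPKM there and 164 ± 52.8 in mature leaves.

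Light calls among these unigenes were few. In young S. superba leaves limma called 7 of 70 higher and 2 lower in full light, beside 3.02% and 2.32% of all unigenes, and the list median was 0.572 against 0.0659. The 9 calls fell to 0 without young low light replicate 2, to 2 without young low light replicate 3 or young full light replicate 3, to 3 without young full light replicate 1 or 2, and to 5 without mature full light replicate 2. Of the calls with a mean of at least 10 FPKM the largest rise was in CL649.Contig1, a leucine-rich repeat extensin, with 24.6 ± 9.58 FPKM in full and 6.19 ± 2.12 in low light (1.81 on the log2 scale, SE 0.308, adjusted p 0.0107, and 0.0562 without young low light replicate 2). Another leucine-rich repeat extensin, CL2528.Contig7, fell from 60.3 ± 13.5 FPKM in low light to 4.25 ± 7.21 in full light (-4.58, SE 0.906, adjusted p 0.019, and 0.00475 to 0.0976 over the alternatives). CL3263.Contig2 was 1.05 higher in full light (adjusted p 0.0333, and 0.015 to 0.132 over the alternatives).

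In mature S. superba leaves the single call was Unigene44, an extensin-2-like unigene, with 1.71, 16.6 and 6.58 FPKM in full light, and in low light 225, 35.3 and 76 FPKM. The difference was -3.59 on the log2 scale, full minus low (SE 0.713, adjusted p 0.0459). Without any 1 of 10 of the libraries it was no longer called, and it stayed called only without mature full light replicate 2 or mature low light replicate 2 (adjusted p 0.0319 to 0.334 over all alternatives). It is the nearest unigene to Unigene5735, and both had higher levels in low light than in full light in mature leaves. That likeness was picked over these same 12 libraries, so the shared order goes with the choice. Both have an extensin-2 best hit, and whether they share reads was not examined. No unigene of the list was called for light by age in S. superba by limma, where 13 were higher and 2 lower at an unadjusted p under 0.05. In C. concinna limma called 0 of 84 for light in young leaves (12 higher and 3 lower unadjusted), 0 for light in mature leaves (2 and 6) and 0 for light by age (4 and 1). Unadjusted shares over all unigenes were not counted, so the unadjusted counts are not a result about the list. For light by age the list median was 0.679 in S. superba, against 0.172 over all unigenes. It was 0.401 against 0.393 in C. concinna.

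Genes that act on or beside these proteins were counted in the same fits, where 36.3% of all S. superba unigenes were called higher in young leaves in full light and 29.5% in low light, and 20.2% and 17.1% in C. concinna. Arabinogalactan proteins, the wall's other large group of hydroxyproline-rich glycoproteins, were called higher in young leaves in 15 of 17 unigenes in S. superba in each light, and in 11 of 11 in full and 10 of 11 in low light in C. concinna; none was called lower. These are 88.2% in S. superba and 100% and 90.9% in C. concinna. Unigene25340 of S. superba (lysine-rich arabinogalactan protein 18) went from 0.513 ± 0.307 FPKM in mature to 232 ± 70.1 in young full light leaves (SD, n = 3; 7.24, adjusted p 1.61e-08). Unigene23106 of C. concinna (lysine-rich arabinogalactan protein 19-like) went from 6.7 ± 6.17 to 1276 ± 389 FPKM (7.71, adjusted p 4.80e-05). Glycine-rich proteins were called higher in 16 of 23 in full and 13 in low light in S. superba, and in 10 of 18 in both lights in C. concinna (69.6%, 56.5% and 55.6%), with at most 1 lower in any comparison.

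Of prolyl 4-hydroxylases, the enzymes that hydroxylate the prolines, 1 of 6 (16.7%) was called higher in young leaves in each light in S. superba, below the 36.3% and 29.5% of all unigenes. That was Unigene5701 (prolyl 4-hydroxylase 10), at 45 ± 4.82 against 16.7 ± 2.09 FPKM in full light (SD, n = 3; 1.38, adjusted p 1.98e-05). In C. concinna 5 of 5 were called higher in full light and 3 of 5 in low light. Unigene4418 (prolyl 4-hydroxylase subunit alpha-1) had 17.3 ± 0.954 FPKM in young and 2.1 ± 0.372 in mature full light leaves (2.57, adjusted p 2.54e-05).

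Of the class III peroxidases of S. superba, 19 of 35 (54.3%) were called higher and 0 lower in young full light leaves, and 12 (34.3%) higher and 2 (5.71%) lower in low light, beside 9.67% and 9.19% of all unigenes lower. In C. concinna 24 of 39 (61.5%) were higher and 4 (10.3%) lower in full light, with 23 (59%) higher and 5 (12.8%) lower in low light, beside 8.19% and 20.7% of all unigenes lower. Unigene5127 of S. superba (peroxidase 3) had 299.5 ± 105 FPKM in young against 4.23 ± 3.27 in mature full light leaves (6.03, adjusted p 3.39e-06). Unigene29201 of C. concinna (peroxidase 5-like) was higher in mature leaves, as CL2130.Contig2 was, at 191.5 ± 149 against 0.907 ± 1 FPKM in full light (-6.38, adjusted p 6.37e-05) and 27.6 ± 18.7 against 0.41 ± 0.265 in low light (-4.02, adjusted p 0.00129). Proline-rich receptor-like kinases (PERK), which carry an extensin-like outer part, were called higher in 8 of 25 in full and 10 of 25 in low light in S. superba, and in 4 and 3 of 27 in C. concinna, where 3 were lower in each light. Their shares higher were 32% in full and 40% in low light in S. superba, beside 36.3% and 29.5% of all unigenes. In C. concinna they were 14.8% and 11.1%, beside 20.2% and 17.1%.

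**Figure D4:**
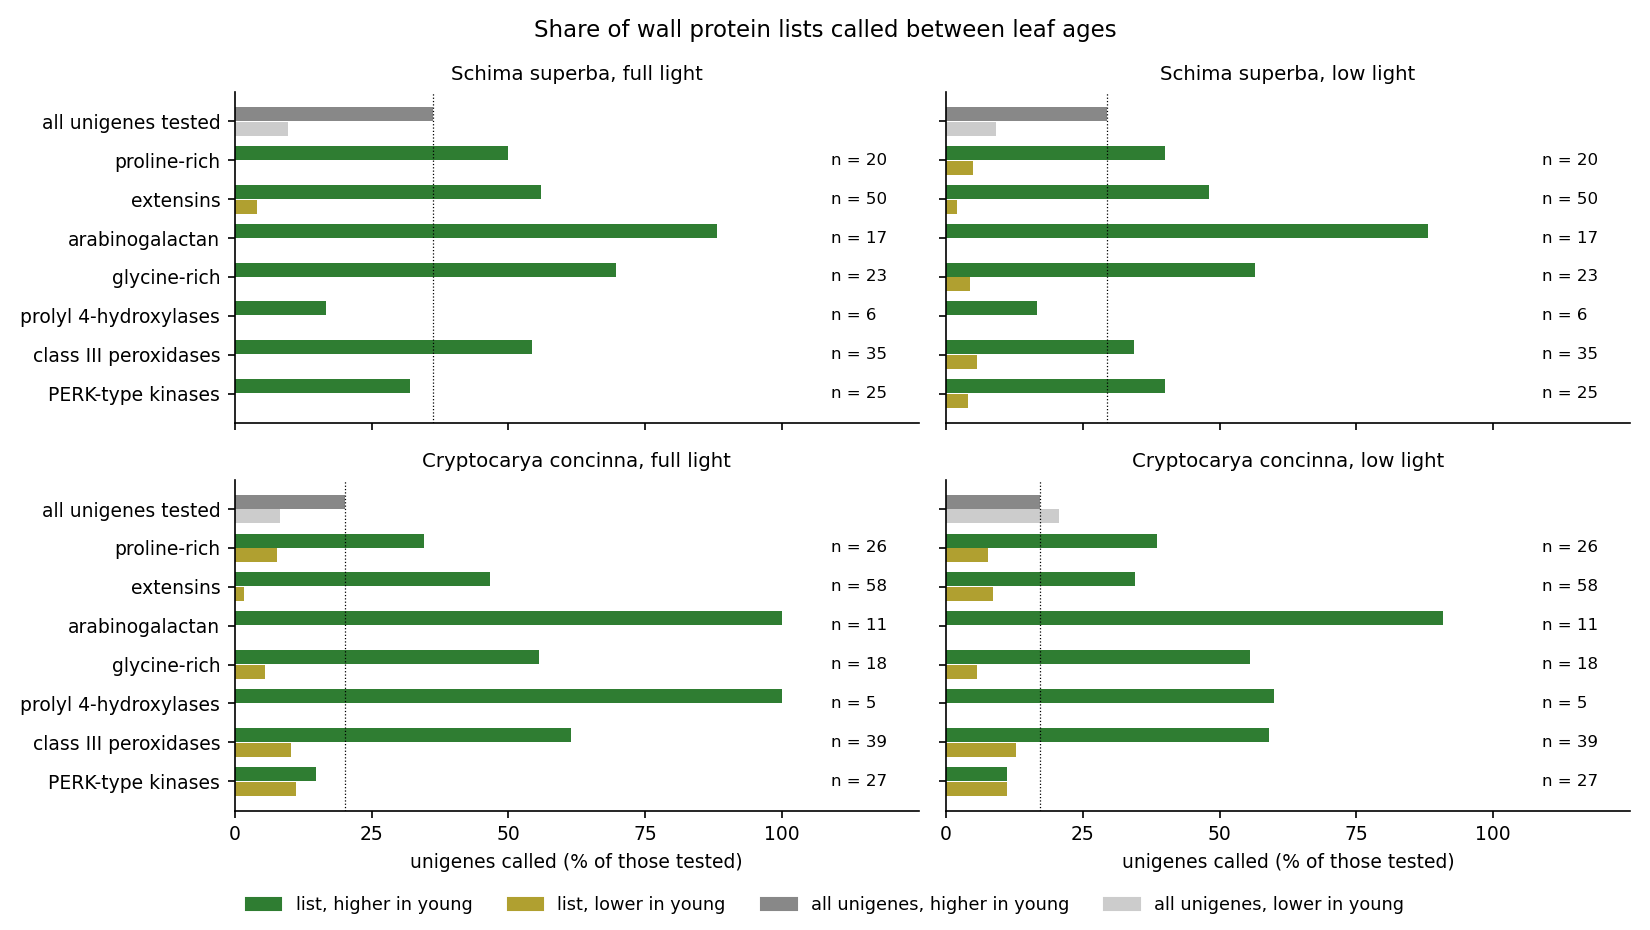
Percent of the unigenes tested in each wall protein list that limma called higher or lower in young leaves, by species and light, beside the percent over all unigenes tested (grey bars, with the percent higher as a dotted line); n is the number tested. Arabinogalactan proteins have the largest share higher in young leaves in S. superba, 15 of 17 in each light.

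Markers of several other cell types moved with leaf age too, but not all: in S. superba phloem markers overlapped between the ages in each light and root markers in full light. Xylem markers of C. concinna overlapped in low light. In S. superba, guard cell lineage markers (4 unigenes) summed to 20 to 40.9 FPKM in young and 1.98 to 8.83 in mature leaves, xylem markers to 136 to 276 and 9.99 to 73.8, and epidermis and trichome markers to 136 to 282 and 66.2 to 92.9. In C. concinna, guard cell markers (8 unigenes) summed to 43.6 to 60.5 in young and 10.4 to 18.7 in mature leaves, and epidermis markers (5 unigenes) to 84.1 to 241 and 34.7 to 47.9. Root markers (8 unigenes) summed to 96 to 149 in young and 40.4 to 66 in mature full light leaves, and overlapped between the ages in low light. Mesophyll markers, given above, had the opposite order, higher in mature leaves, except that the ages overlapped in C. concinna low light. The part of all these in the age differences was not tested. C. concinna mature low light replicate 2 is the library with high xylem markers. Without it, 33 of the 83 other proline-rich and extensin unigenes tested were called higher in young low light leaves and 7 lower. The list median was then 1.25, against -0.368 over all unigenes. The share of all unigenes called without that library is not given here.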

How the data were processed

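Leaf RNA was sequenced in 24 libraries, 12 per species, extracted with a Sangon column kit (S. superba) or a Magen HiPure kit (C. concinna), per the labels' protocols. The authors deposited FPKM per unigene and library with a best protein hit for 56.7% and 59.4% of unigenes, per the file headers; the tool named is RSEM 1.2.12, per the submitters' processing notes. The assembler and aligner are not given in the sources used here. The deposited FPKM values are not counts and absolute depth is unknown, so no counting intervals are given and values of 0 are called listed at 0. No annotated genome or sequence was used.

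Each species was fitted alone in limma 3.58.1 (R 4.3.3) on log2(FPKM + 1), with 1 mean for each of the 4 groups and 1 spread, with trend, for all 12 libraries. Tests were two-sided, and p-values were adjusted by the Benjamini-Hochberg method over the 50970 (S. superba) and 53005 (C. concinna) unigenes that reached an FPKM of 1 in 3 or more libraries. Calls are at adjusted p under 0.05. Light differences are full minus low and age differences young minus mature. Light by age subtracts the light difference of mature leaves from that of young leaves. Age in full light and age in low light share no library, whereas each light comparison shares libraries with both age comparisons. The script was tested on simulated data.

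The 5 unigenes and all lists (words in the best-hit descriptions) were chosen with earlier results of these data known. A p is printed for one of the 5 only where the comparison shares no library with the one known to have chosen it, though the spread is fitted to all 12 libraries. Other genes were named by a rule: other contigs of the 5 unigenes' clusters, the 3 most similar described unigenes, and per list and comparison the called unigenes with the largest rise and fall with a mean of at least 10 FPKM in the higher group and, for light and age, no overlap between the 3 libraries of each group. A list of hydroxyproline glycosyltransferases matched 0 unigenes. Alternatives were a pseudocount of 0.1, no filter, a filter at a mean FPKM of 5, rescaling by median ratios or without the 5 unigenes, a replicate block, only the groups compared, limma without trend, summed clusters and each library left out. One more, added after seeing the data, used the mean of S. superba young low light replicates 2 and 3, the most alike pair. Figures were drawn with matplotlib 3.10.9.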

Additional observations from a re-analysis of the deposited data

Results flagged for a closer look

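Of the genes named above or by the same rule, 2 unigenes of S. superba, both from lists beside the proline-rich proteins and extensins, had light differences that differed between leaf ages in the limma test of that difference. Unigene20542 (glycine-rich cell wall structural protein) had 367 ± 81.9 FPKM in young full light and 180 ± 33.1 in young low light leaves, was listed at 0 in mature full light, and had 0.827 ± 0.275 in mature low light (SD, n = 3). The light difference in young minus that in mature leaves was 1.87 on the log2(FPKM + 1) scale (SE 0.299, adjusted p 0.0211), a size that depends on the pseudocount because of the values listed at 0. Leaving out young full light replicate 1 ended the call (adjusted p 0.0553), as did leaving out replicate 2 (0.0688) or 3 (0.0572) of young low light or using the mean of these 2 as 1 library (0.0628). Unigene9309 (peroxidase 12-like) had 511.5 ± 84.9 and 152.5 ± 32.7 FPKM in young full and low light leaves and 223 ± 51.1 and 239.5 ± 69.5 in mature ones, a difference of 1.83 (SE 0.386, adjusted p 0.0445). It lost its call in 16 of 20 alternatives, with adjusted p from 0.0285 to 0.0986. Groups of 3 libraries were too small to look for single outlying libraries by a test.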

How the results depend on the processing

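The 3 tested values of the 5 unigenes kept their side of the threshold in 64 of 64 alternatives and their direction in 61. CL2130.Contig2, light in young leaves (0.0081), was at -0.484 with median-ratio rescaling, -0.191 without young full light replicate 2 and -0.0524 without young low light replicate 2 (-0.191 to 0.213 with one library left out). The other values of the 5 moved by less than the spread between replicates (1 residual SD) in 443 cases and by more in 8. Among the smaller moves, Unigene6825, light in mature leaves, changed sign in 1 alternative, and Unigene16568, light by age, in 4 (-1.81 to 0.42 over all). Age calls among the other proline-rich and extensin unigenes varied with the library left out. S. superba had 40 in full light (40 to 44 with one library left out) and 34 in low light (29 to 35). C. concinna had 39 in full light (29 to 45) and 37 in low light (31 to 40). The last was 23 with a mean FPKM of at least 5, where fewer unigenes were tested. Light calls in young S. superba leaves (9) were 1 with a pseudocount of 0.1, 1 with the mean of young low light replicates 2 and 3, and 0 to 9 with one library left out; the cause was not tested. The single call in mature S. superba leaves became 2 with a pseudocount of 0.1, a mean FPKM of at least 5 or median-ratio rescaling, 0 with no filter, rescaling without the 5 unigenes, only the groups compared, no trend or the mean of replicates 2 and 3, and 0 to 3 with one library left out. Light by age in S. superba went from 0 to 1 with a mean FPKM of at least 5 and was 0 to 3 with one library left out (3 without mature low light replicate 2), and light in mature C. concinna leaves was 0 to 1 (1 without mature full light replicate 1). Young light and light by age in C. concinna stayed at 0 in every fit with one library left out, but the medians of its list changed sign with median-ratio rescaling, from 0.29 to -0.0771 and from 0.401 to -0.0181.

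A replicate block gave 5 calls for light in young S. superba leaves and 0 in mature leaves. The labels do not say what a replicate number marks, and in no comparison did all 3 same-numbered pairs deviate together at r over 0.1 (-0.24 to 0.324). S. superba age in low light came nearest, at 0.0999, 0.104 and 0.324. The numbers were not taken to pair the samples. Every one of 6 libraries matched its own number best in no comparison. Low values limit what can be told in mature leaves, where CL4111.Contig1 and Unigene6825 are at or near 0: with a pseudocount of 0.1 the light difference of CL4111.Contig1 in mature leaves was -4.58 in place of -1.78, and the age difference of Unigene6825 in low light 11.47 in place of 9.18.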
